A study of Homo sapiens with 16 samples.

Results

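The IL-6 family genes examined here were 4 ligands (IL6, IL11, LIF and CLCF1), 4 receptor chains (IL6R, IL6ST, LIFR and OSMR), the transcription factor STAT3 and the feedback inhibitor SOCS3. They were chosen by name as a pathway, with earlier results of these data known, and all 10 were found among the 57820 genes of the count tables. Bulk RNA-Seq covered sublines of 2 established lines of mesenchymal triple-negative breast cancer, MDA-MB-231 and also MDA-MB-436. All sublines carried the 7TGP plasmid, in which Tcf/Lef binding sites drive eGFP, and all had been selected with puromycin. Repeated sorting on eGFP gave a 7TGP-POS (reporter-positive) and a 7TGP-NEG (reporter-negative) subline of each line, so each state of each line is represented by 1 sorted population. Cells were grown in low serum (0.5% FBS, harvested on day 3) or in standard serum (10% FBS, harvested on day 6), with 2 biological replicates in each of the 8 groups.

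Cytokines of this family signal through the shared chain gp130, which IL6ST encodes. IL-6 first binds IL6R and IL-11 first binds IL11RA before gp130 is engaged, whereas LIF signals through a pair of gp130 and LIFR, and oncostatin M through gp130 with OSMR or LIFR. The receptors activate JAK kinases, which phosphorylate STAT3, and STAT3 induces SOCS3, which in turn blocks the receptor. RNA levels do not show phosphorylation. In breast cancer, IL-6 and IL-11 are best known as inflammatory signals exchanged between tumor cells, stroma and bone.

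Libraries held 27918418 to 32667756 counts on genes in low serum and 31827130 to 46044073 in standard serum. According to the methods of the study, low serum RNA was depleted of ribosomal RNA and standard serum RNA was selected for polyadenylated transcripts, and the sequencers also differed. Serum, culture time, kit and sequencing run cannot be told apart, so levels were compared only within a serum condition. In standard serum, the 2 replicates of MDA-MB-436 7TGP-POS differed more than those of any other group (chi-square per gene 28.2, against 3.11 to 14.4 elsewhere), and results that involve this group are also given without 1 or the other of them where that matters. The mesenchymal markers VIM, ZEB1 and FN1 were detected in every library, at 13.6 TPM or more, and CDH1, ESR1 and PGR stayed at or below 0.321 TPM. ERBB2 lay between 20.7 and 54.7 TPM. Of the markers of other cell types, CD3E, HBB and HBA1 had at most 3 counts and CDH5 at most 5 counts in any library. The leukocyte genes PTPRC, CD14 and LYZ reached 4.26, 26.4 and 23.5 TPM, and VWF 0.763 TPM. In MDA-MB-231, PTPRC was higher with the reporter in low serum (log2 fold change 1.14, adjusted p = 3.61e-06) and LYZ was lower in standard serum (-1.53, adjusted p = 4.08e-05), and their part in the results below was not tested. In bulk RNA, fewer cells that express a gene and less RNA per cell cannot be told apart.

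Levels of different genes were compared as TPM, which divides by transcript length, rescaled over the protein-coding genes of each library. IL6ST was the most abundant member in MDA-MB-231 7TGP-NEG in low serum, with 305 ± 6.69 TPM (SD, n = 2), and IL6R the least abundant there, with 0.581 ± 0.124 TPM. LIF and STAT3, with 101 ± 0.899 and 117 ± 1.22 TPM, stood between them. In MDA-MB-436 7TGP-NEG in low serum, IL6ST again led with 299 ± 9.12 TPM, and IL11 was last with 1.25 ± 0.230 TPM. In standard serum the first place differed between groups. IL11 led in MDA-MB-231 7TGP-POS with 291 ± 1.36 TPM, and IL6 led in MDA-MB-436 7TGP-POS with 351 ± 14.8 TPM. IL6R was the least abundant member in all 4 MDA-MB-231 groups.

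**Figure D1:**
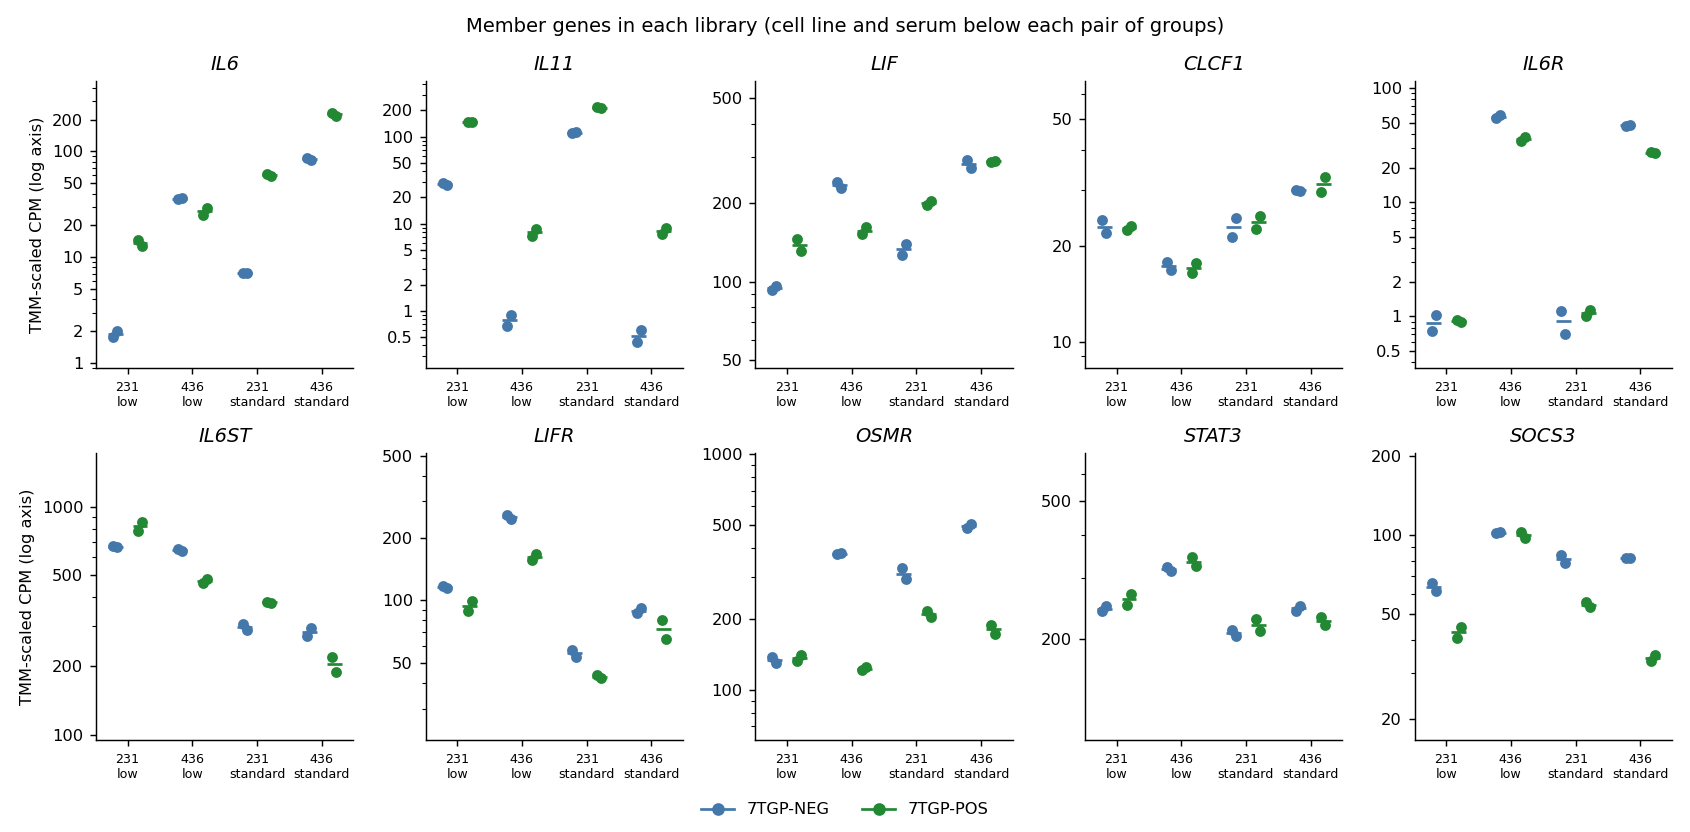
Expression of the 10 genes in each library, as TMM-scaled CPM on a log axis, with 1 point per library and a line at the mean of the 2 replicates. The genes span a wide range, and IL6, IL11 and IL6R show the widest separation between cell lines. IL11 reaches 217 CPM in MDA-MB-231 7TGP-POS and lies at or below 8.84 CPM in all MDA-MB-436 libraries, and IL6R lies at or below 1.13 CPM in all MDA-MB-231 libraries.

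Changes between groups were measured on CPM (the usual unit of counts relative to the size of the library, here scaled with edgeR's TMM factors), and tested with edgeR's quasi-likelihood test across all protein-coding genes of a serum condition. Higher, lower, rose and fell are used of a gene whose Benjamini-Hochberg adjusted p was under 0.05. A gene is called changed where, in addition, its absolute log2 fold change was at least 1. The first question was which members differed between reporter-positive and reporter-negative cells. In MDA-MB-231 in low serum, IL6 and IL11 were called higher in 7TGP-POS cells and none of the 10 was called lower, against 5.9% of 16069 genes called. For the same line in standard serum, IL6 alone was called, against 7.69% of 15414 genes. Of the members in MDA-MB-436, in low serum IL11 was called higher and OSMR lower, against 10.5% of 16069 genes. In MDA-MB-436 in standard serum, IL6 and IL11 were called higher and both OSMR and SOCS3 lower, against 12.5% of 15414 genes. With so few members, these counts are a description. The median log2 fold change of the members was 0.08 and 0.15 in MDA-MB-231 in low and standard serum, where that of all genes was -0.01 and 0.00, and it was -0.42 and -0.21 in MDA-MB-436, where that of all genes was 0.01 and 0.00.

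By the adjusted p alone, 4 members rose and 2 fell with the reporter in MDA-MB-231 in low serum, where 38.9% of all genes passed. The standard serum counts were 4 that rose and 3 that fell, where 33.0% passed. For MDA-MB-436 in low serum, 1 rose and 6 fell, where 52.0% of all genes passed, and for standard serum 2 rose and 5 fell, where 49.5% passed. STAT3 and CLCF1 passed in none of the 4 comparisons.

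**Figure D2:**
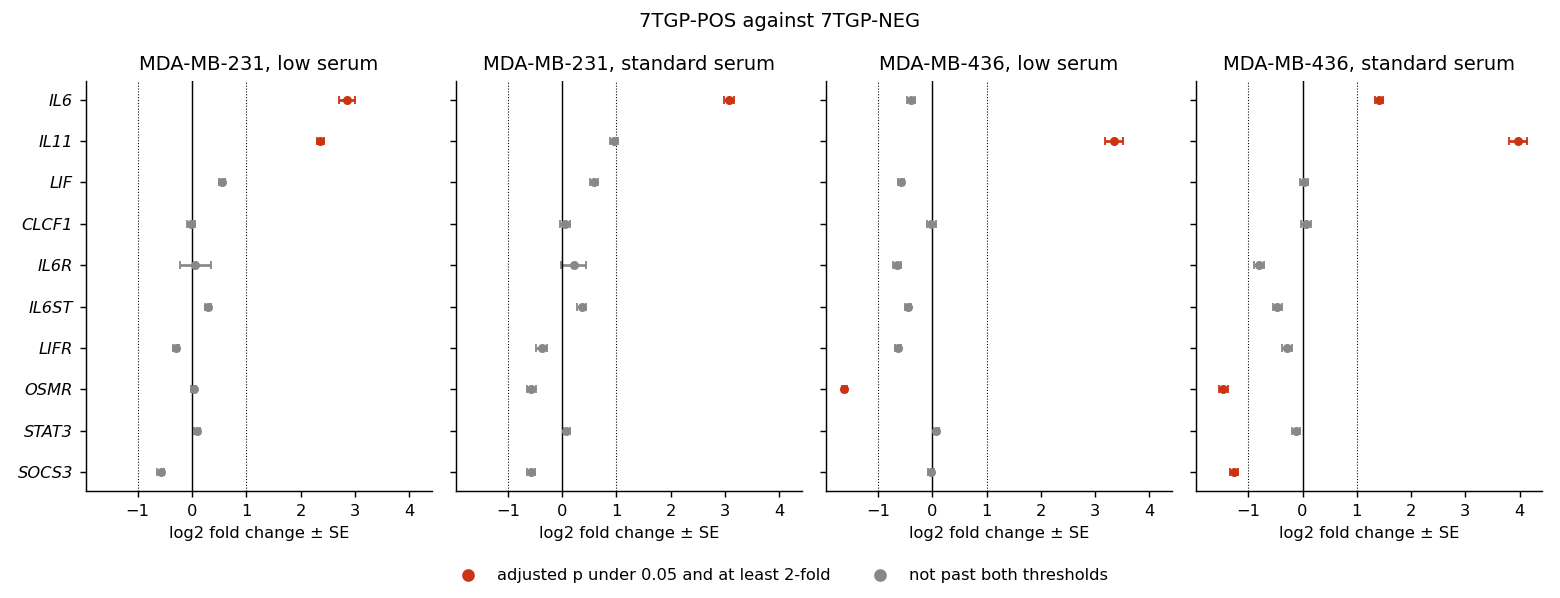
Log2 fold change of each gene in 7TGP-POS against 7TGP-NEG cells, with the standard error of edgeR's fit, in each cell line and serum condition (2 against 2 libraries). Red points passed an adjusted p of 0.05 and a 2-fold change, and dotted lines mark 2-fold. IL11 is to the right of 0 in all 4 panels, whereas OSMR is beyond 2-fold to the left in MDA-MB-436 only.

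The ligands IL6 and IL11 carried the largest reporter differences among the members in MDA-MB-231. In MDA-MB-436 IL11 had the largest, and OSMR (log2 fold changes of -1.62 and -1.46 in low and standard serum) came before IL6 (-0.39 and 1.40) in size. The sequence before the start sites of IL6 and IL11 is shown because both were called higher in MDA-MB-231 in low serum and in MDA-MB-436 in standard serum. The promoter sequences come from RefSeq (250 bases before the start of transcription, 8 of the 10 members matched), and the windows of IL6 and IL11 were located by exact match in GRCh37. The last 53 bases of the IL6 window are covered by an exon in Gencode v44 and are left out, so 197 bases are shown for IL6 and 250 for IL11. The IL6 stretch lies at chr7:22766569-22766765 on the plus strand, within the annotated IL6 gene, and ends where that exon begins. It is intronic in a longer IL6 transcript and in STEAP1B and IL6-AS1 on the other strand. The IL11 stretch lies at chr19:55881832-55882081 on the minus strand and is intergenic. Capitals mark a match to the NF-kB consensus in IL6 and to the AP-1 motif TGANTCA in IL11, with both strands searched.
IL6: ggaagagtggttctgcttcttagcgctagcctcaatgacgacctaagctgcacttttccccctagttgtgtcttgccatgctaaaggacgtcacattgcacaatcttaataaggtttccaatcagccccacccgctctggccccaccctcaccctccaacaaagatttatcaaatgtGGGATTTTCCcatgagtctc
IL11: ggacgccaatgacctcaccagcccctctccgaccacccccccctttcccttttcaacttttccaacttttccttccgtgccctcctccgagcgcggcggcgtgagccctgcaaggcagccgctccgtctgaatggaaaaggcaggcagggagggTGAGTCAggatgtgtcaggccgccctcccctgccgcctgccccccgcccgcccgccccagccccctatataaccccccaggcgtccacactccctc
The NF-kB consensus was present in 9.96% of 35116 RefSeq promoter windows of 250 bases, and TGANTCA in 6.57%. The IL6 window held no TGANTCA and the IL11 window no NF-kB consensus, so the motif in capitals differs by gene. The window of IL6ST, not shown, also held the NF-kB consensus. Neither the IL6 nor the IL11 window held the TCF/LEF core CTTTGA (11.2% of all windows) or the STAT motif TTCNNNGAA (6.57% of all windows) on either strand. These matches describe letters in a window and do not show binding.

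IL6 (ENSG00000136244, chromosome 7, 22765503 to 22771621, plus strand, Gencode v44 on GRCh37) encodes interleukin-6. In MDA-MB-231 in low serum it was at 1.78 and 2.01 CPM in the 7TGP-NEG libraries and at 14.7 and 12.7 CPM in the 7TGP-POS libraries. Its standard serum values were 7.01 and 7.15 CPM in 7TGP-NEG and 61.1 and 58.0 CPM in 7TGP-POS. The groups did not overlap, and the log2 fold change was 2.85 in low serum (SE 0.142, adjusted p = 4.51e-20) and 3.07 in standard serum (SE 0.0901, adjusted p = 1.5e-14). MDA-MB-436 in low serum had IL6 at 35.6 and 35.9 CPM in 7TGP-NEG and at 25.1 and 29.5 CPM in 7TGP-POS. The values in standard serum were 86.3 and 83.0 CPM in 7TGP-NEG and 232 and 216 CPM in 7TGP-POS. IL6 therefore fell in MDA-MB-436 7TGP-POS in low serum, by 0.39 on the log2 scale (SE 0.0792, adjusted p = 5.48e-05), and rose by 1.40 in standard serum (SE 0.0745, adjusted p = 4.31e-11). Every MDA-MB-436 library was above every MDA-MB-231 library of the same serum condition. The 50 nearest tested genes on chromosome 7, over 19.2 Mb, had a median log2 fold change of 0.42 in MDA-MB-436 in both serum conditions, and IL6 differed from that median by -0.81 (low serum) and 0.98 (standard serum). For MDA-MB-231 the same neighbourhood had medians of 0.09 and 0.20. IL6 overlaps STEAP1B and IL6-AS1 on the opposite strand. The kits mark strand, and the strand setting of the counting is not given in the sources used here. IL6-AS1 had 2 to 60 counts per library and STEAP1B at most 30, against 48 to 11271 for IL6. Within a library they reached 16.7% and 43.8% of the IL6 count.

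IL11 (ENSG00000095752, chromosome 19, 55875750 to 55881831, minus strand) encodes interleukin-11. In MDA-MB-231 in low serum it was at 29.2 and 27.7 CPM in 7TGP-NEG and at 146 and 147 CPM in 7TGP-POS. Standard serum values were 109 and 113 CPM in 7TGP-NEG and 217 and 213 CPM in 7TGP-POS. The groups were apart in both conditions, and the log2 fold change was 2.36 in low serum (SE 0.0652, adjusted p = 9.3e-29). In standard serum it was 0.95 (SE 0.0798, adjusted p = 3.86e-08), just short of 2-fold. MDA-MB-436 expressed little IL11, and its 7TGP-NEG libraries held 21 and 24 counts in low serum (0.673 and 0.891 CPM) and 15 and 24 counts in standard serum (0.435 and 0.595 CPM). The 7TGP-POS libraries were at 7.17 and 8.69 CPM in low serum and at 7.67 and 8.84 CPM in standard serum. The log2 fold change of IL11 was thus 3.34 in low serum (SE 0.17, adjusted p = 3.43e-20) and 3.97 in standard serum (SE 0.159, adjusted p = 9.22e-13). Even the highest MDA-MB-436 library was below the lowest MDA-MB-231 library of its serum condition. The 50 neighbours of IL11 had medians between -0.21 and -0.01 in the 4 comparisons.

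LIF (leukemia inhibitory factor, chromosome 22) moved less. Its mean in MDA-MB-231 was 94.8 ± 2.13 CPM in 7TGP-NEG and 138 ± 10.8 CPM in 7TGP-POS in low serum, and 133 ± 9.01 and 200.2 ± 5.12 CPM in standard serum. Both differences passed the adjusted p but not 2-fold, with log2 fold changes of 0.55 (adjusted p = 7.92e-11) and 0.59 (adjusted p = 6.18e-06). In MDA-MB-436 in low serum LIF fell by 0.58 on the log2 scale, from 234 ± 7.68 to 156 ± 6.70 CPM (adjusted p = 2.67e-12). In standard serum the MDA-MB-436 groups overlapped, with a log2 fold change of 0.03 ± 0.0733 (SE, adjusted p = 0.745). CLCF1 (cardiotrophin-like cytokine factor 1, chromosome 11) lay between 16.5 and 33.0 CPM in all 16 libraries, and its log2 fold change was between -0.02 and 0.06 with standard errors of 0.0809 to 0.0984. It overlaps RAD9A on the opposite strand, which had 392 to 1777 counts per library.

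Of the other ligands on a list of 7, 5 were tested in each serum condition. EBI3, the beta subunit of IL-27 and IL-35, rose in MDA-MB-231 7TGP-POS in low serum (from 0.6 ± 0.168 to 2.34 ± 0.184 CPM, log2 fold change 1.96, adjusted p = 2.83e-07) and in standard serum (from 0.712 ± 0.0333 to 3.29 ± 0.184 CPM, log2 fold change 2.20, adjusted p = 5.75e-07). In MDA-MB-436 it fell in standard serum, from 13.6 ± 0.447 to 5.72 ± 1.11 CPM (log2 fold change -1.26, adjusted p = 6.78e-07). CTF1, cardiotrophin-1, had 94 to 288 counts in MDA-MB-231 libraries and at most 5 in MDA-MB-436 libraries. OSM, the ligand of OSMR, had at most 4 counts in any library. The call rule thus took 1, 1, 1 and 2 of the 5 tested ligands in MDA-MB-231 low and standard serum and MDA-MB-436 low and standard serum, against 5.9%, 7.69%, 10.5% and 12.5% of all genes.

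The receptor IL6R (chromosome 1), which binds IL-6, was expressed in MDA-MB-436 and nearly absent from MDA-MB-231. The 8 MDA-MB-231 libraries held 20 to 38 counts each, and no reporter difference was detectable there at this depth (log2 fold change 0.06 ± 0.283 in low serum and 0.22 ± 0.232 in standard serum, SE). The MDA-MB-436 libraries in low serum were at 54.8 and 57.9 CPM in 7TGP-NEG and at 34.2 and 37.4 CPM in 7TGP-POS, and it fell by 0.65 on the log2 scale (SE 0.0693, adjusted p = 1.36e-10). Those in standard serum were at 47.2 and 47.9 CPM in 7TGP-NEG and at 27.6 and 26.9 CPM in 7TGP-POS, and IL6R fell by 0.80 on the log2 scale (SE 0.0979, adjusted p = 2.26e-06). Neither fall reached 2-fold. The 50 neighbours of IL6R had medians of -0.11 and -0.29 in these comparisons. ADAM10 and ADAM17, the proteases that release IL6R from the cell surface, were not called in the 4 reporter comparisons. By the adjusted p alone, ADAM17 was higher in 7TGP-POS except in MDA-MB-231 in standard serum, and ADAM10 was lower in MDA-MB-231 in both conditions (log2 fold changes of -0.29 and -0.75).

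IL6ST (gp130, chromosome 5) moved in opposite directions in the cell lines. In MDA-MB-231 it rose in 7TGP-POS, from 668 ± 5.65 to 821 ± 53.0 CPM in low serum (log2 fold change 0.30, adjusted p = 6.53e-06) and from 297 ± 10.6 to 381 ± 1.85 CPM in standard serum (0.36, adjusted p = 0.00178). In MDA-MB-436 it fell, from 646 ± 10.5 to 472.5 ± 11.7 CPM in low serum (-0.45, adjusted p = 6.45e-10) and from 282 ± 17.0 to 204 ± 21.5 CPM in standard serum (-0.47, adjusted p = 0.000104). None of these changes reached 2-fold. LIFR (chromosome 5), the LIF receptor, passed the adjusted p in all 4 comparisons and was lower in 7TGP-POS in each, with log2 fold changes of -0.30 and -0.38 in MDA-MB-231 and -0.64 and -0.29 in MDA-MB-436 in low and standard serum. In MDA-MB-436 in standard serum the 7TGP-POS replicates were at 80.3 and 65.05 CPM, against 86.6 and 91.5 CPM in 7TGP-NEG. There the log2 fold change of LIFR ran from -0.47 to -0.15 when 1 library was left out.

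OSMR (ENSG00000145623, chromosome 5, 38845960 to 38945698, plus strand), the oncostatin M receptor, fell in MDA-MB-436. In low serum it was at 377 and 380 CPM in 7TGP-NEG and at 122 and 124 CPM in 7TGP-POS. In standard serum it was at 487 and 506 CPM in 7TGP-NEG and at 188 and 172 CPM in 7TGP-POS. The groups were far apart in both conditions. The log2 fold change of OSMR was -1.62 in low serum (SE 0.0507, adjusted p = 2.66e-27) and -1.46 in standard serum (SE 0.0788, adjusted p = 5.35e-11). MDA-MB-231 in low serum had OSMR at 137 and 129 CPM in 7TGP-NEG and at 132 and 140 CPM in 7TGP-POS, and the groups overlapped. In MDA-MB-231 in standard serum it was at 328 and 294 CPM in 7TGP-NEG and at 216 and 204 CPM in 7TGP-POS, and fell by 0.57 on the log2 scale (SE 0.0779, adjusted p = 1.49e-05).

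OSMR, LIFR and IL6ST share chromosome 5 with many genes that had negative reporter differences in MDA-MB-436. The 50 nearest tested genes around OSMR, over 18.6 Mb in low serum and 20.1 Mb in standard serum, had a median log2 fold change of -1.02 and -0.80, and 92.0% and 88.0% of them were below 0. The difference of OSMR from these medians was -0.60 and -0.66, and 2 and 4 of the 50 neighbours were at or below it. LIFR lay above the medians of its own neighbours, which were -1.05 and -0.81, by 0.41 and 0.52. Around IL6ST the medians were -0.28 and -0.06. In MDA-MB-231 the medians around these 3 genes were between -0.05 and 0.08. How much of the fall of OSMR goes with the fall of the region was not tested. OSMR overlaps the end of RICTOR on the opposite strand, which had 2273 to 9904 counts per library.

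**Figure D3:**
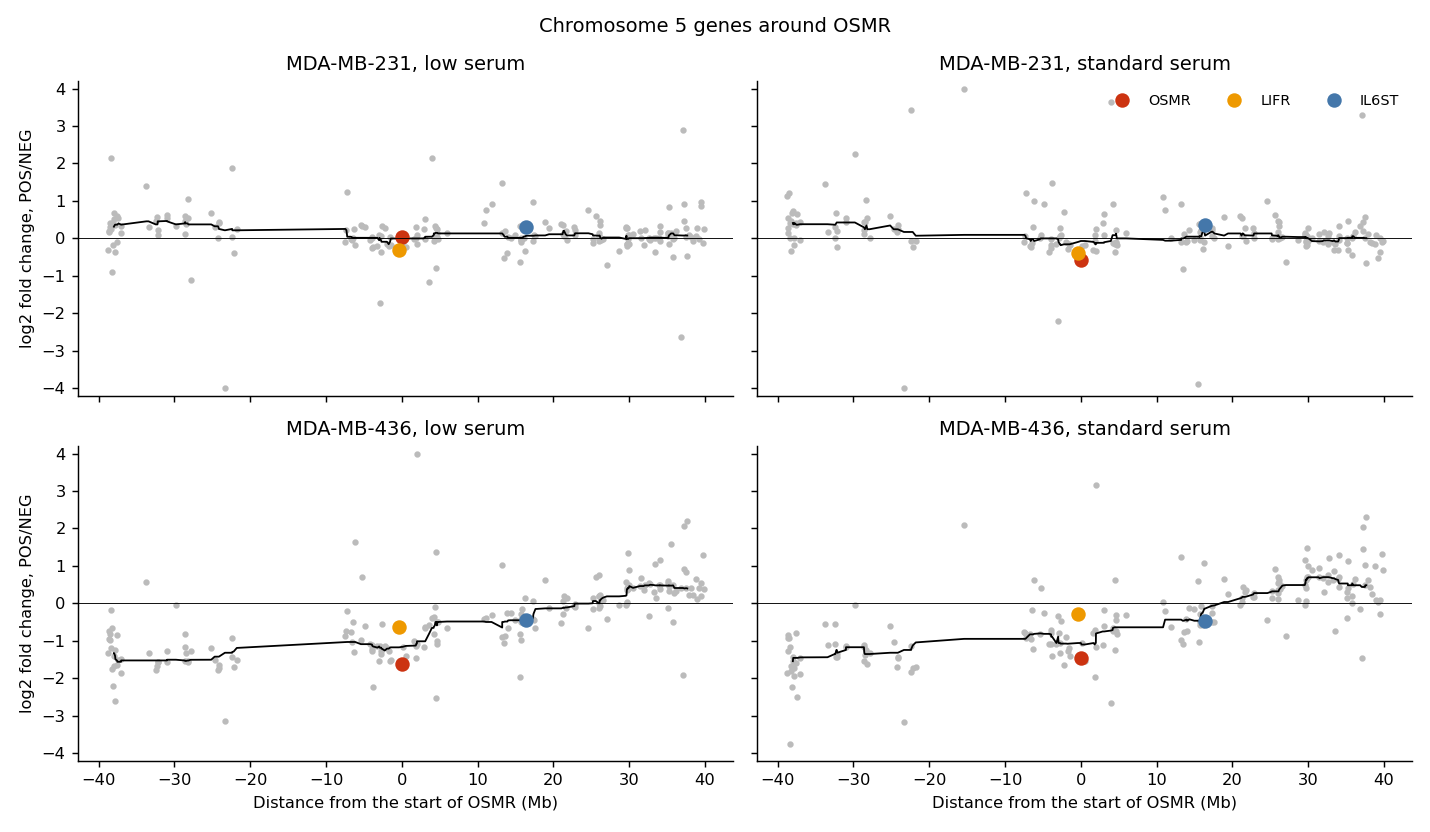
Log2 fold change (7TGP-POS against 7TGP-NEG) of tested genes on chromosome 5 with a mean of at least 1 CPM, by distance from the start of OSMR in Mb. The black line is the running median of 21 genes, and values beyond 4 are drawn at 4 or -4. In MDA-MB-436 the line lies below 0 around OSMR and LIFR in both serum conditions, where the 50 nearest genes had medians of -1.02 and -0.80, and in MDA-MB-231 it stays near 0.

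Of the 4 other receptor chains listed, 2 were called in MDA-MB-436 in standard serum, against 12.5% of all genes. In each of the 3 other comparisons 0 were called (MDA-MB-231 low and standard serum, MDA-MB-436 low serum), against 5.9%, 7.69% and 10.5% of all genes. There 3, 1 and 1 passed the adjusted p alone, against 38.9%, 33.0% and 52.0%. With so few genes, these counts are a description. The calls were IL27RA and IL31RA. IL27RA, the IL-27 receptor, fell from 41.6 ± 2.05 to 18.4 ± 1.5 CPM (log2 fold change -1.18, adjusted p = 5.14e-09). IL31RA went from 16 and 18 counts to 62 and 23 counts (log2 fold change 1.07, adjusted p = 0.031), and the call was lost without replicate 1 of 7TGP-POS (0.35, adjusted p = 0.484) and without either 7TGP-NEG library (1.09 and 1.04, adjusted p = 0.121 and 0.153). In the other 3 comparisons IL27RA was not called. Its mean went from 45.7 ± 0.0185 to 25.4 ± 1.24 CPM in MDA-MB-436 in low serum. In MDA-MB-231 it went the other way, from 40.9 ± 0.399 to 50.05 ± 0.0811 CPM in low serum and from 31.6 ± 0.919 to 47.4 ± 1.77 CPM in standard serum. IL11RA, the receptor of IL-11, was present in all groups at 5.24 to 12.1 TPM on average. In MDA-MB-231 in low serum, where IL11 rose, IL11RA fell from 12.2 ± 0.896 to 6.38 ± 1.2 CPM (log2 fold change -0.93, adjusted p = 5.48e-08), short of 2-fold. CNTFR had at most 4 counts in MDA-MB-231 libraries and 67 to 107 in MDA-MB-436 libraries.

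STAT3 (chromosome 17) had the narrowest range of group means of the 10 genes in standard serum. Its means ran from 244 ± 5.85 to 334 ± 14.2 CPM in low serum and from 207 ± 5.66 to 245 ± 5.43 CPM in standard serum. The reporter log2 fold changes were 0.09 and 0.08 in MDA-MB-231 and 0.07 and -0.12 in MDA-MB-436, with standard errors of 0.0499 to 0.072 and adjusted p values of 0.159 to 0.45. Of the 6 other STAT genes, 0 were called in MDA-MB-231 in low and standard serum and in MDA-MB-436 in low serum, against 5.9%, 7.69% and 10.5% of all genes. By the adjusted p alone 0, 1 and 5 passed there, against 38.9%, 33.0% and 52.0%. In MDA-MB-436 in standard serum 5 were lower and 1 higher by the adjusted p, where 49.5% of all genes passed. Their median log2 fold change was -0.80, against 0.00 for all genes. There 2 were called lower, against 12.5% of all genes called in either direction. Among them was STAT4, which fell from 1.60 ± 0.126 to 0.570 ± 0.167 CPM (log2 fold change -1.51, adjusted p = 0.000249). Of 8 kinases and adaptors of the pathway, 1 was called in MDA-MB-231 in low serum, against 5.9% of all genes. In MDA-MB-231 in standard serum and in MDA-MB-436 in low and standard serum 0 were called, against 7.69%, 10.5% and 12.5%. The call was JAK3, which fell from 5.74 ± 0.202 to 1.83 ± 0.309 CPM (log2 fold change -1.65, adjusted p = 2.51e-10).

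SOCS3 (ENSG00000184557, chromosome 17, 76352859 to 76356158, minus strand), which STAT3 induces and which limits IL-6 signaling, was lower in 7TGP-POS cells in 3 of 4 comparisons. MDA-MB-231 in low serum had SOCS3 at 66.0 and 61.5 CPM in 7TGP-NEG and at 40.8 and 44.6 CPM in 7TGP-POS. Its standard serum values were 84.4 and 78.3 CPM in 7TGP-NEG and 55.9 and 53.1 CPM in 7TGP-POS. SOCS3 fell by 0.58 on the log2 scale in both conditions (adjusted p = 2.85e-10 in low and 1.24e-05 in standard serum), short of 2-fold, in the same libraries in which IL6 rose. For MDA-MB-436 in low serum SOCS3 was at 102 and 102 CPM in 7TGP-NEG and at 103 and 97.9 CPM in 7TGP-POS, and the groups overlapped. In standard serum it was at 82.1 and 82.0 CPM in 7TGP-NEG and at 33.2 and 35.2 CPM in 7TGP-POS, and fell by 1.26 on the log2 scale (SE 0.0786, adjusted p = 3.67e-10). In that comparison 1 of its 50 neighbours was at or below it, and the neighbours' median was -0.17.

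Among 13 tested negative regulators other than SOCS3, 1 and 2 were called in MDA-MB-231 in low and standard serum, against 5.9% and 7.69% of all genes. In MDA-MB-436 0 and 1 were called, against 10.5% and 12.5%. All of these calls were higher in 7TGP-POS, but by the adjusted p alone the list went in both directions. In MDA-MB-231, 3 were higher and 5 lower in low serum, and 5 higher and 4 lower in standard serum. In MDA-MB-436, 4 were higher and 4 lower in low serum, and 3 higher and 3 lower in standard serum. SOCS1 rose in MDA-MB-231 in low serum, from 1.61 ± 0.504 to 3.87 ± 0.199 CPM (log2 fold change 1.27, adjusted p = 7.78e-07, and 0.98 without replicate 2 of 7TGP-NEG), and in standard serum, where the 7TGP-NEG libraries held 8 and 3 counts and the 7TGP-POS libraries 25 and 51 (adjusted p = 0.00464). PTPN6, the phosphatase SHP-1, rose in MDA-MB-231 in standard serum from 3.52 ± 0.327 to 7.45 ± 0.752 CPM (log2 fold change 1.08, adjusted p = 6.9e-05), and was just short of 2-fold without replicate 1 of 7TGP-NEG (0.99) or of 7TGP-POS (0.98). SOCS2 rose in MDA-MB-436 in standard serum from 1.86 ± 0.205 to 4.59 ± 0.469 CPM (log2 fold change 1.30, adjusted p = 5.8e-07).

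The genes known as STAT3 targets moved in both directions. Of 27 listed, 25 were tested, and their median log2 fold change was 0.08 and 0.00 in MDA-MB-231 in low and standard serum and 0.00 and -0.08 in MDA-MB-436. Among them 4 were called higher and 2 lower in low serum in MDA-MB-231, and in standard serum 3 higher and 3 lower, against 5.9% and 7.69% of all genes called in either direction. A lower call in low serum was lost without replicate 2 of 7TGP-NEG or of 7TGP-POS. In standard serum TIMP1 and another lower call were lost without replicate 2 of 7TGP-POS. Of the 25 in MDA-MB-436, in low serum 1 was called higher and 1 lower, and in standard serum 0 higher and 1 lower, against 10.5% and 12.5%. SAA1, an acute phase protein, rose in MDA-MB-231 from 5.6 ± 0.0074 to 23.2 ± 0.891 CPM in low serum (log2 fold change 2.05, adjusted p = 2.73e-14) and from 2.58 ± 0.122 to 14.7 ± 1.47 CPM in standard serum (2.50, adjusted p = 3.51e-11). SAA1 and SAA2 are near-identical copies, so their reads may be split between them. The adhesion ligand ICAM1 rose in MDA-MB-231 in low serum from 183 ± 3.56 to 419 ± 12.7 CPM (1.19, adjusted p = 1.73e-22).

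NNMT, nicotinamide N-methyltransferase, went in opposite directions in the cell lines. It rose in MDA-MB-231 by 1.71 in low serum (adjusted p = 2.85e-22) and 1.10 in standard serum (adjusted p = 1.06e-08), and fell in MDA-MB-436 by 1.48 (adjusted p = 1.4e-19) and 1.38 (adjusted p = 3.68e-10), all on the log2 scale. The protease inhibitor A2M fell in MDA-MB-231 in low serum from 2.82 ± 0.194 to 0.755 ± 0.257 CPM (-1.88, adjusted p = 2.3e-07). For MDA-MB-436 in low serum A2M had 3 and 1 counts in 7TGP-NEG and 63 and 61 counts in 7TGP-POS (adjusted p = 4.18e-12). In MDA-MB-231 in standard serum, FOS fell from 55.5 ± 2.16 to 14.4 ± 2.31 CPM (-1.94, adjusted p = 5.8e-10) and TIMP1 from 528 ± 3.14 to 254 ± 22.5 CPM (-1.06, adjusted p = 5.41e-09, and -0.97 without replicate 2 of 7TGP-POS).

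**Figure D4:**
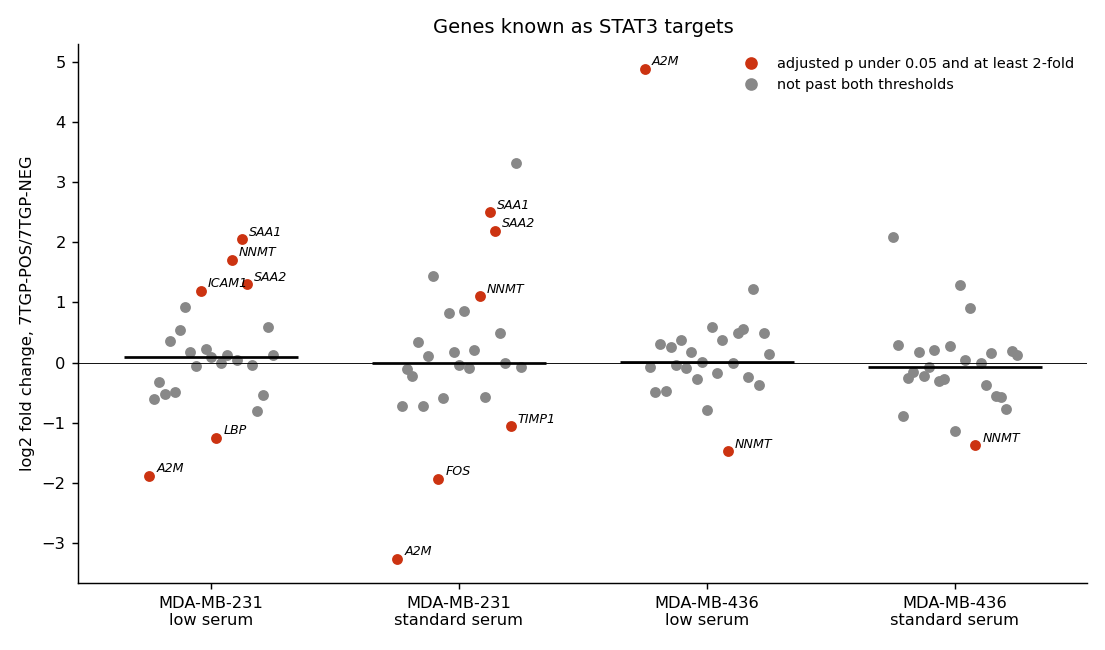
Log2 fold change (7TGP-POS against 7TGP-NEG) of the 25 tested genes known as STAT3 targets, with 1 point per gene and a bar at the median of the list. Red, named points passed an adjusted p of 0.05 and a 2-fold change. The medians lie between -0.08 and 0.08, and NNMT is above 0 in MDA-MB-231 and below 0 in MDA-MB-436.

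As a check of the sort, 6 genes known as Wnt targets were listed. LEF1 was higher in 7TGP-POS in MDA-MB-231 in low serum (log2 fold change 0.63, adjusted p = 1.42e-06) and in MDA-MB-436 in low serum (0.50, adjusted p = 1.36e-05) and standard serum (0.90, adjusted p = 9.13e-07). AXIN2 was higher in MDA-MB-231 in low serum (0.65, adjusted p = 8.29e-06), and its other 3 differences had adjusted p values of 0.106 to 0.684. In low serum RNF43 was also higher in MDA-MB-231 (from 7.97 ± 0.3 to 12.1 ± 1.21 CPM), and ZNRF3 in MDA-MB-436 (from 26.9 ± 0.599 to 30.6 ± 1.53 CPM). None of these passed 2-fold. By the adjusted p, 3 of the 6 were higher and 1 lower in MDA-MB-231 in low serum, and 1 higher and 0 lower in standard serum. In MDA-MB-436 2 were higher and 2 lower in low serum, and 1 higher and 2 lower in standard serum. RNF43 rose in MDA-MB-231 in standard serum (1.11, adjusted p = 0.000166, and 0.93 without replicate 1 of 7TGP-NEG), while NKD1 fell in MDA-MB-436 in low serum (-1.21, adjusted p = 1e-05) and SP5 in standard serum (-1.13, adjusted p = 0.000644, and -0.87 without replicate 1 of 7TGP-POS). SP5 was also lower in low serum in MDA-MB-231 (-0.55, adjusted p = 0.00459) and MDA-MB-436 (-0.59, adjusted p = 0.0024). The median of the 6 genes was 0.49 and -0.07 in MDA-MB-231 and -0.20 and -0.42 in MDA-MB-436, in low and standard serum. RNF43 was also called lower in MDA-MB-436 in standard serum (adjusted p = 0.00828), with 13 and 6 counts in 7TGP-NEG and 1 and 3 in 7TGP-POS, and the call was lost without replicate 1 of either group (adjusted p = 0.153 and 0.106).

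The second question was whether the reporter difference of a member was the same in both cell lines. It was tested as the difference of the log2 fold changes, MDA-MB-231 minus MDA-MB-436, in the same fit. In low serum it was called for IL6 (3.25, SE 0.164, adjusted p = 6.77e-20), OSMR (1.65, SE 0.0717, adjusted p = 3.94e-22) and LIF (1.13, SE 0.0764, adjusted p = 8.02e-16), against 11.7% of 16069 genes. In standard serum it was called for IL11 (-3.02, SE 0.189, adjusted p = 6.9e-10), IL6 (1.67, SE 0.116, adjusted p = 2.72e-09) and IL6R (1.02, SE 0.252, adjusted p = 0.00328), against 13.8% of 15414 genes. The call of IL6R rested on 20 to 38 counts per MDA-MB-231 library and was lost when 1 of 3 libraries was left out, with 0.73 (without replicate 2 of MDA-MB-231 7TGP-NEG), 0.93 (without replicate 2 of MDA-MB-231 7TGP-POS) and 0.99 (without replicate 2 of MDA-MB-436 7TGP-POS). For IL11 in low serum the difference was -0.98 (SE 0.21, adjusted p = 0.000155), just under 2-fold. It ran from -0.76 (without replicate 1 of MDA-MB-436 7TGP-NEG) to -1.18 (without replicate 2 of that group) when 1 library was left out, and passed 2-fold in 3 of these 8 fits. With limma-trend it was -0.39 on log2(TPM + 0.5) (adjusted p = 0.149) and -0.04 on log2(TPM + 1) (adjusted p = 0.901). IL6ST passed the adjusted p in both conditions, with differences of 0.75 (adjusted p = 1.58e-11) and 0.83 (adjusted p = 1.32e-05). OSMR in standard serum was at 0.89, short of 2-fold, and ran from 0.82 to 0.97 when 1 library was left out. SOCS3 was at -0.55 in low serum (adjusted p = 4.84e-07). In standard serum SOCS3 had the other sign, and ran from 0.63 to 0.74 when 1 library was left out.

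The reporter difference was also compared between serum conditions, standard minus low, which cannot be told apart from a difference between the library preparations. In MDA-MB-231 IL11 was called (-1.43, SE 0.106, adjusted p = 4.82e-09), against 1.64% of 15286 genes. IL6 had a difference of 0.20 (SE 0.172, adjusted p = 0.54) there. In MDA-MB-436, IL6 (1.80, SE 0.105, adjusted p = 2.7e-11) and SOCS3 (-1.24, SE 0.0954, adjusted p = 2.47e-09) were called, against 3.23% of 15286 genes. OSMR had a difference of 0.16 (SE 0.0913, adjusted p = 0.232) in that line.

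The third question was how the cell lines differed in the same reporter state. The methods of the study give each line its own medium, whereas the labels name DMEM for both. By the methods, cell line and medium cannot be told apart, here or where reporter differences are compared between lines. Among 7TGP-NEG cells in low serum 6 members were called, against 41.9% of 16069 genes. MDA-MB-231 was higher for IL11 (log2 fold change 5.19, adjusted p = 1.77e-31) and lower for IL6R (-5.99, adjusted p = 1.07e-34), IL6 (-4.24, adjusted p = 1.25e-29), OSMR (-1.50, adjusted p = 1.96e-27), LIF (-1.30, adjusted p = 5.72e-24) and LIFR (-1.12, adjusted p = 3.46e-22). Among 7TGP-POS cells in low serum 3 were called, against 38.9% of 16069 genes. These were IL11 (4.21, adjusted p = 1.05e-36), IL6R (-5.28, adjusted p = 9.81e-32) and SOCS3 (-1.23, adjusted p = 9.73e-22). IL6 was at -0.99 there (adjusted p = 4.1e-13), and was called without replicate 1 of MDA-MB-231 7TGP-POS (-1.10) or of MDA-MB-436 7TGP-POS (-1.07).

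Among 7TGP-NEG cells in standard serum 4 members were called, against 46.7% of 15414 genes. IL11 was higher in MDA-MB-231 (7.72, adjusted p = 6.88e-19), and IL6R (-5.68, adjusted p = 1.21e-16), IL6 (-3.58, adjusted p = 7.14e-17) and LIF (-1.08, adjusted p = 1.77e-10) were lower. Among 7TGP-POS cells in standard serum 3 were called, against 45.4% of 15414 genes, which were IL11 (4.71, adjusted p = 4.78e-18), IL6R (-4.66, adjusted p = 1.73e-15) and IL6 (-1.91, adjusted p = 5.74e-14). IL6ST was at 0.90 and was called (1.01) without replicate 1 of MDA-MB-436 7TGP-POS. In both serum conditions IL11 was highest in 7TGP-POS and then 7TGP-NEG cells of MDA-MB-231, followed by 7TGP-POS and then 7TGP-NEG cells of MDA-MB-436, with no overlap between neighbours. For IL6R both MDA-MB-436 groups were above both MDA-MB-231 groups, which overlapped each other. The highest mean was 63.9 times the lowest for IL6R in low serum, and 187 and 417 times for IL11 in low and standard serum.

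The genes whose pattern was most like that of a member were sought over the 8 group means of log2 CPM, with each serum condition centred on its own mean, among 13705 protein-coding genes. For IL6 these were IL1A (Pearson r = 0.99), PRKACB (0.99) and CCDC86 (0.99), and LIF had r = 0.93 with IL6. For IL11 they were ADAP2 (1.00), SAMD12 (0.99) and WDR35 (0.99), and LIFR had r = -0.95 with IL11. For OSMR they were SPRING1 (0.98), ZNF622 (0.97) and PHLDA3 (0.96). The 8 means share libraries and are dominated by the difference between cell lines, so these values are a description.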

How the data were processed

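RNA was measured in 16 libraries, 2 biological replicates for each of 8 groups of cell line, reporter state and serum, and the groups were taken from the sample titles. The counts deposited by the authors are whole numbers of pairs per gene, neither normalized nor filtered, from STAR alignments to hg19 with the Gencode v19 annotation. They deposited TPM as well, and how TPM was calculated is not given in the sources used here. In low serum, protein-coding genes held 41.0% to 69.6% of TPM and 89.0% to 94.0% of counts, against 94.3% to 95.7% and 96.8% to 97.8% in standard serum. TPM levels were therefore rescaled over protein-coding genes. The labels name 1 library kit for all samples and DMEM for both lines, and the methods give a kit for each serum condition and a medium for each line.

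Symbols, positions and biotypes came from Gencode v44 lifted to GRCh37, and 2 listed genes (SOCS7 and PECAM1) were not matched. Within each serum condition, protein-coding genes whose counts summed to 10 or more were tested with edgeR's quasi-likelihood test (glmQLFit, robust, TMM factors), with 4 groups in 1 model per serum condition, and with Benjamini-Hochberg adjustment over all genes tested. Serum conditions were compared in 1 model of all 16 libraries, over genes tested in both. A standard error is the size of the log2 fold change over the root of F. All p-values rest on a spread between replicates, estimated over all groups of a model (2 replicates per group) and drawn toward that of other genes. A group whose replicates differ more has no spread of its own. The study's methods used DESeq2 with the same thresholds, which is an alternative here. Other alternatives were DESeq2 size factors, no filter, filterByExpr, all biotypes, limma-trend on log2(TPM + 0.5) and log2(TPM + 1), a replicate block, leaving out each library, no threshold on the fold change, glmTreat against 1.5-fold, 1 model of all libraries, thinning to the smallest library and 20 in place of 50 neighbours. The limma-trend fits used TPM as deposited, not rescaled. Leaving out each library was also applied to the listed genes, an alternative chosen after seeing the data. The test was tested on simulated data.

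The members and gene lists were chosen with earlier results of these data known. All 10 members are named, together with at most 4 called genes per list and comparison (smallest adjusted p) and the 3 genes most alike for IL6, IL11 and OSMR. Wnt targets, IL11RA, CTF1, CNTFR, OSM, ADAM10 and ADAM17 were also named, after their values were seen. Some listed genes are counted but not reported here by name. Promoter windows came from RefSeq (GRCh38.p14) and were placed by exact match in GRCh37. Versions were R 4.3.3, edgeR 4.0.16, limma 3.58.1, DESeq2 1.42.0, Python 3.11.15, numpy 2.4.6, pandas 2.3.3 and matplotlib 3.10.9.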

Additional observations from a re-analysis of the deposited data

Results flagged for a closer look

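Reporter differences that were not the same in 2 groups are given here where the test of the difference itself passed an adjusted p of 0.05 (edgeR's quasi-likelihood test) and a log2 difference of 1. Between cell lines in low serum (MDA-MB-231 minus MDA-MB-436) these were IL6 at 3.25, LIF at 1.13 and OSMR at 1.65. The MDA-MB-436 side of the OSMR difference lies in a part of chromosome 5 in which the 50 nearest genes had a median of -1.02, against 0.02 in MDA-MB-231. Between cell lines in standard serum they were IL6 at 1.67, IL11 at -3.02 and IL6R at 1.02. The IL6R value rests on 20 to 38 counts per MDA-MB-231 library, and was lost without 1 of 3 libraries. Between serum conditions (standard minus low) they were IL11 at -1.43 in MDA-MB-231, and IL6 at 1.80 and SOCS3 at -1.24 in MDA-MB-436. Serum and library preparation cannot be told apart in these last 3. In the differences between cell lines, line and medium cannot be told apart by the methods of the study.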

How the results depend on the processing

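Of 2420 member values under the alternatives, 2382 stayed on the same side of the thresholds with the same direction, 9 lost the call and 23 gained it. A further 6 changed sign with an adjusted p under 0.05 in 1 of the fits, all with limma-trend on TPM in comparisons between cell lines. With log2(TPM + 0.5) these were IL6ST in 7TGP-NEG in low serum (-0.35) and OSMR in 7TGP-POS in low (-0.21) and standard serum (-0.005), and with log2(TPM + 1) they were -0.35, -0.20 and -0.005. Another 85 signs changed where neither fit passed the adjusted p. TPM shifted the median gene of the reporter comparisons by -0.22 in MDA-MB-231 and -0.26 in MDA-MB-436 in low serum, and by 0.03 and 0.10 in standard serum. With TPM, the differences of IL6R between lines (0.83 and 0.77, standard serum) and of SOCS3 between serum conditions in MDA-MB-436 (-0.89 and -0.88) fell short of 2-fold. Counts of members called moved by over 1.5 times in few settings. Limma-trend on TPM gave 5 for 7TGP-POS between lines in low serum, and 1 between serum conditions in MDA-MB-436, with either pseudocount. glmTreat gave 6 and 5 for 7TGP-POS between lines in low and standard serum and 2 for the reporter in MDA-MB-231 in standard serum. With the adjusted p alone the counts were 6 and 7 for the reporter in MDA-MB-231, 7 and 7 in MDA-MB-436, 8 and 7 for the difference between lines, 10 and 9 for 7TGP-POS and 8 (standard serum) for 7TGP-NEG between lines, and 2 and 4 between serum conditions. Thinned to the smallest library, the IL6R difference between lines was 0.94. Leaving out each library gave 3 to 4 calls for the difference between lines in low serum and 2 to 3 in standard serum, 3 to 4 for 7TGP-POS between lines in both, and the counts in the report elsewhere. All 40 neighbour medians stayed within the spread of the neighbours with 20 genes.

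Replicate numbers were not taken to pair the samples, since the correlation of same-numbered deviations between groups ran from -0.153 to 0.052 in low serum and from -0.036 to 0.291 in standard serum, where 5 of 6 were positive. With the replicate block the counts of called members were 2 and 1 in MDA-MB-231 and 2 and 4 in MDA-MB-436, and the block changed none of the 120 member calls. Depth limits IL6R in MDA-MB-231 (20 to 38 counts) and IL11 in MDA-MB-436 7TGP-NEG (15 to 24 counts), and 2 replicates per group limit every error given.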
